A study of Mus musculus with 3 samples.

Results

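Genes for 3 families of voltage-gated channels were followed through the cell types of the mouse medial prefrontal cortex. They were the Kv3 genes Kcnc1 and Kcnc2, the Kv7 genes Kcnq3 and Kcnq5 and the HCN genes Hcn2, Hcn3 and Hcn4, chosen by symbol, which made 7 of the 32285 genes in the count tables. The question was which neuron classes and subclasses carried most of each RNA, and whether any of the genes differed between libraries of different reproductive state or sex. Cells came from females in estrus, the receptive stage of the cycle, from females in diestrus, a non-receptive stage, and from males. The tissue of 2 mice was pooled into 1 droplet library per condition, so the mice of a condition could not be separated. No genotype, transgene, treatment, strain or age was given in the labels used here.

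Kv3 channels are potassium channels that open only at strongly depolarised potentials and close very fast, which keeps action potentials brief and lets fast-spiking interneurons fire at high rates. Kv7 channels carry the M-current, a slow potassium current active near the firing threshold that muscarinic receptors can shut off through loss of a membrane phospholipid. HCN channels are opened by hyperpolarisation, pass sodium and potassium, and are tuned by cyclic nucleotides. In cortex they set resting potential, input resistance and rhythmic responses.

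The estrus, diestrus and male libraries held 14476, 18052 and 19555 barcodes, of which 12300, 14129 and 15565 were retained. Although the labels name neurons as the cell type, the marker gate placed 1245, 1486 and 1258 of the retained cells among glutamatergic neurons and 161, 317 and 292 among GABAergic neurons, and most others among glial and vascular cells. Depth differed between libraries. Glutamatergic neurons had medians of 39214, 29497 and 19435 unique molecular identifiers (UMIs, counts of captured RNA molecules) per cell and GABAergic neurons 23750, 13148 and 13336.5. Levels are given as counts per 1000000 UMIs of nuclear genes (CPM), from UMIs summed over the cells of a population in a library. In every neuron subclass at least 3 of its own markers reached 20 CPM. The smallest subclasses gave no estrus value at the minimum of 20 cells, because the estrus library held 15 Pvalb, 19 Sncg and 3 L6b neurons. Few barcodes occurred in more than 1 library, from 68 to 97 per pair, and 9 to 18 gated neurons per library had such a barcode. Leaving them out changed no direction and no call of the 7 genes in the contrasts below.

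Summed over the cells of each class, both Kv3 genes were higher in GABAergic than in glutamatergic neurons. Both Kv7 genes differed by less and in the opposite direction, Kcnq5 with overlap of the classes. Kcnc2 read 727, 969 and 1100 CPM in GABAergic neurons of the estrus, diestrus and male libraries against 73.2, 90.4 and 74.7 CPM in glutamatergic neurons. Kcnc1 read 205, 211 and 288 CPM against 54.9, 51.6 and 50.5 CPM. The lowest GABAergic library thus lay above the highest glutamatergic library for both genes. On the log2 scale Kcnc2 was 3.45 ± 0.12 (SE) higher (adjusted p = 7.02e-10) and Kcnc1 2.06 ± 0.11 higher (adjusted p = 2.76e-08), in 3 of 3 libraries each. These p-values come from edgeR's quasi-likelihood test with the library as a block, n = 3 libraries, adjusted by Benjamini-Hochberg over 15926 genes. They set the class difference against its spread across 3 libraries of pooled mice, each of another condition. The test moderates that spread with the spread of all genes tested, so p-values this small do not rest on the 3 libraries alone.

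Kcnq3 was lower in GABAergic neurons, at 326, 330 and 324 CPM against 410, 450 and 445 CPM, and the classes did not overlap. Its log2 difference was -0.50 ± 0.08 (adjusted p = 0.000377). Kcnq5 read 477, 880 and 627 CPM against 696, 862 and 976 CPM, so the classes overlapped and the diestrus library alone had the higher GABAergic value. Its difference of -0.47 ± 0.12 passed the threshold with all libraries (adjusted p = 0.00588) and did not without the male library (-0.32, adjusted p = 0.118). Kcnq5 means ran from 80.5 CPM in Sst to 1870 CPM in Sncg neurons among GABAergic subclasses. Among glutamatergic ones they ran from 112 CPM in L6b to 1399 CPM in L2/3 IT neurons. The part of subclass makeup in the class difference was not tested. Hcn3 read 11.97, 8.35 and 10.7 CPM in GABAergic and 7.53, 5.62 and 6.24 CPM in glutamatergic neurons. It was 0.59 ± 0.18 higher in GABAergic neurons (adjusted p = 0.0177), and that call was lost without the male library (0.56, adjusted p = 0.107). Hcn2 differed by 0.15 ± 0.10 (adjusted p = 0.22) and Hcn4 by 0.54 ± 0.33 (adjusted p = 0.201), neither past the threshold, although Hcn4 passed it without the estrus library (0.97, adjusted p = 0.0367). In all, 5 of the 7 genes were called in this contrast, where 49.0% of all genes tested were called, so the count itself does not set the channel genes apart. Without the male library 3 of the 7 were called.

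**Figure D1:**
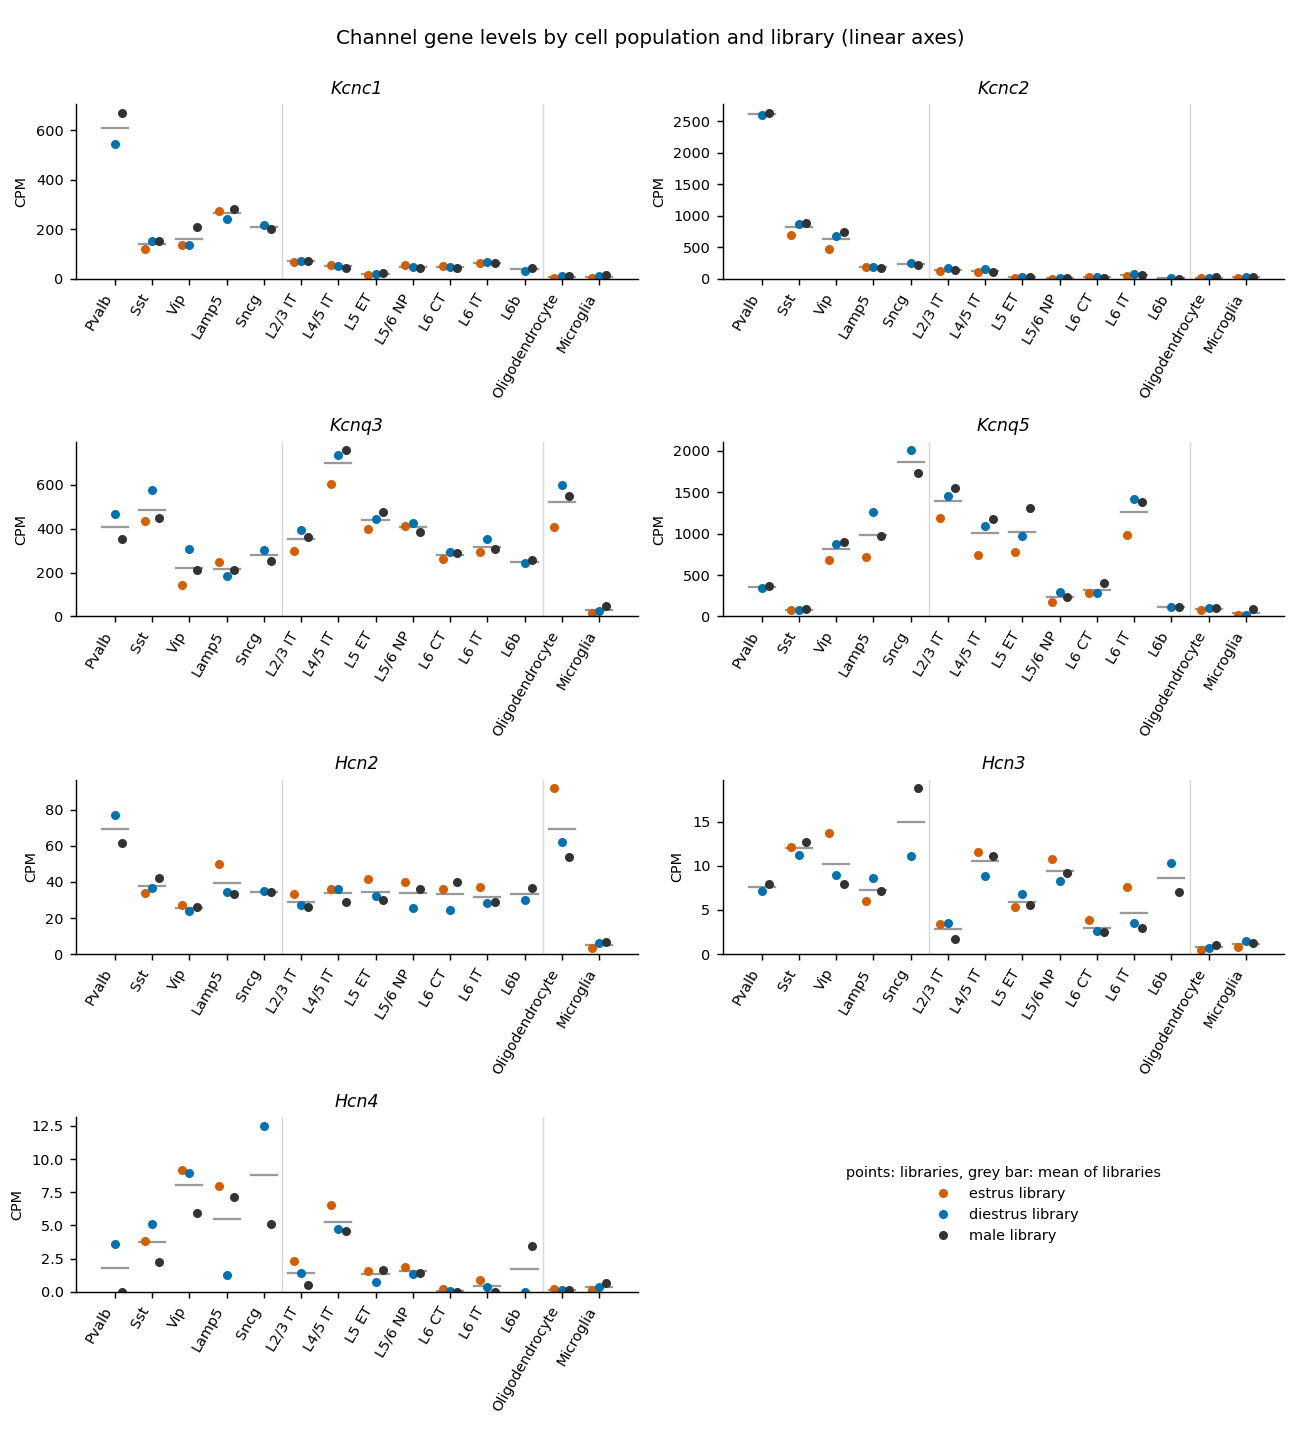
CPM of each channel gene (linear axes, from 0) in GABAergic subclasses, glutamatergic subclasses, oligodendrocytes and microglia, with 1 point per library and a grey bar at the mean of the libraries. Kcnc1 and Kcnc2 peak in Pvalb neurons, Kcnq5 spans 80.5 CPM in Sst to 1870 CPM in Sncg neurons, and the Hcn2 means lie between 25.8 and 39.3 CPM in every neuron subclass but Pvalb.

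Both Kv3 genes were highest in the same interneuron subclass. Pvalb neurons, gated on parvalbumin and other markers of fast-spiking basket cells, held 2591 CPM of Kcnc2 in the diestrus and 2635 CPM in the male library. Sst neurons, which mostly target dendrites, followed with 698, 876 and 893 CPM in estrus, diestrus and male. Vip neurons, which mostly inhibit other interneurons, held 474, 675 and 740 CPM. The ranges of Sst and Vip overlapped, and both lay above Sncg neurons, with 252 and 212 CPM in diestrus and male. Lamp5 neurons, a subclass that includes neurogliaform cells, held 192, 180 and 167 CPM, below Sncg neurons in diestrus and male. The 19 estrus Sncg neurons, too few for the set minimum, gave 145 CPM, below every Lamp5 library, so the order of Sncg and Lamp5 turns with them. The mean in Pvalb neurons, 2613 ± 30.6 CPM (SD, n = 2), stood against 180 ± 12.7 CPM (SD, n = 3) in Lamp5 neurons.

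Each subclass was then compared with the mean of the other subclasses of its class, with p-values adjusted over the 10000 genes tested among GABAergic subclasses and 14442 among glutamatergic ones. All subclasses of a class shared 1 fit, so the spread behind these p-values was drawn from all of them and again moderated over genes. Kcnc2 was 2.67 ± 0.09 higher in Pvalb neurons (adjusted p = 8.62e-17) and 0.74 ± 0.09 higher in Sst neurons (adjusted p = 4.09e-07). It was lower in Lamp5 neurons, with a log2 difference of -2.03 ± 0.12 (adjusted p = 6.19e-13), and in Sncg neurons, with -1.66 ± 0.13 (adjusted p = 3.05e-10). The small excess in Vip neurons, 0.29 ± 0.10, passed the threshold with 3 libraries (adjusted p = 0.0312) and not without the diestrus (0.31, adjusted p = 0.184) or the male library (0.16, adjusted p = 0.498).

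Kcnc1 shared the Pvalb peak and not the order below it. It read 545 and 671 CPM in Pvalb neurons of the diestrus and male libraries. In Lamp5 neurons, low in Kcnc2, it read 272, 243 and 281 CPM and was next highest. Sst neurons, which with Vip neurons came next for Kcnc2, held 121, 153 and 151 CPM, in a range that overlapped that of Vip neurons. Sncg neurons held 217 and 200 CPM and Vip neurons 137, 136 and 209 CPM, with ranges that overlapped each other. The log2 difference of Kcnc1 was 1.62 ± 0.11 in Pvalb (adjusted p = 1.96e-11), -0.91 ± 0.11 in Sst (adjusted p = 3.93e-07) and -0.64 ± 0.12 in Vip neurons (adjusted p = 0.000254). It missed the threshold in Lamp5 (0.20, adjusted p = 0.232) and Sncg neurons (-0.26, adjusted p = 0.178). For both Kv3 genes Pvalb neurons raise the mean that the other subclasses were set against. Every Lamp5 library lay above every Sst, Vip and Sncg library for Kcnc1, although Lamp5 neurons were not called.

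The estrus Pvalb neurons, too few for the set minimum, gave 489 CPM of Kcnc1 and 1831 CPM of Kcnc2, below the other libraries and above every other subclass of the estrus library. With a minimum of 10 cells, chosen after the data were seen, the Pvalb differences were 1.56 for Kcnc1 and 2.62 for Kcnc2. Pvalb neurons also held some RNA of the Sst marker list, summing to 334 and 598 CPM beside 2874 and 2819 CPM of their own list. In Sst neurons the Sst list summed to 17198 to 26426 CPM. The part of that RNA in the Pvalb values was not tested.

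The promoters of the 2 Kv3 genes are shown because these genes peaked in the same interneurons and ranked the others differently. RefSeq promoters on GRCm38.p6, the same assembly as mm10, were found for 5 of the 7 genes: Kcnc1, Kcnc2, Kcnq5, Hcn2 and Hcn4. Kcnc1 lies on chr7:46396497-46438704 (+) and Kcnc2 on chr10:112271121-112467024 (+). The 250 bases before the start are printed 5′ to 3′ on the gene's strand, chr7:46396218-46396467 for Kcnc1 and chr10:112270871-112271120 for the Kcnc2 start that equals the annotated gene start. Capitals mark GC boxes, the letters GGGCGG on either strand.
Kcnc1: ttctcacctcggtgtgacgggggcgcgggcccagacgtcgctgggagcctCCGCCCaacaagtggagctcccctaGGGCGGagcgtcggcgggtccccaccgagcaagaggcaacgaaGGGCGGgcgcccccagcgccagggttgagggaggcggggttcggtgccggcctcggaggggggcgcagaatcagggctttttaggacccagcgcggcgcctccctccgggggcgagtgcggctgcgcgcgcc
Kcnc2: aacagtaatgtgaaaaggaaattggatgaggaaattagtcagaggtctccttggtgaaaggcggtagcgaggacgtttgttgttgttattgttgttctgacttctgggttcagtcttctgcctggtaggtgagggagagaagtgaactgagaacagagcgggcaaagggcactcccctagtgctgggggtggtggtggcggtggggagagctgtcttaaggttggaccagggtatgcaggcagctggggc
The Kcnc1 window held 3 GC boxes and was 74.4% G and C, and 95.8% of the 32851 mouse promoter windows of that length held as much or less. The Kcnc2 window held 0 GC boxes and was 52.8% G and C, near the median of 52.4%. RefSeq gives 4 starts for Kcnc2, and the window of the most upstream one, chr10:112269767-112270016, held 1 GC box and 3 E boxes, so the comparison with Kcnc1 depends on the start. A GC box was present in 32.7% of all windows, a TATAAA on either strand in 12.4% and in neither Kv3 window, and the E box letters CANNTG, which read the same on both strands, in 66.2% of windows and 1 time in each Kv3 window. These counts describe letters in the windows and were not related to the levels.

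Among glutamatergic neurons Kcnc2 was highest in the 3 IT subclasses. L2/3 IT neurons, upper-layer cells that project within the telencephalon, held 123, 177 and 139 CPM in estrus, diestrus and male. L4/5 IT neurons held 104, 155 and 115 CPM, in the same range. L6 IT neurons held 44.0, 79.5 and 54.3 CPM, below both. L5 ET neurons, which project out of the telencephalon, held 15.0, 32.5 and 24.3 CPM and L6 CT neurons, which project to the thalamus, 28.0, 23.0 and 20.3 CPM. L5/6 NP neurons, which project nearby, held 1.91, 13.1 and 12.8 CPM. L6b neurons, the deepest cells, held 10.3 CPM in diestrus and 0 UMIs in male, where 3 UMIs would have been 5.24 CPM.

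Kcnc2 was called higher in L2/3 IT (2.54 ± 0.13, adjusted p = 5.69e-14), L4/5 IT (2.29 ± 0.14, adjusted p = 9.31e-13) and L6 IT neurons (1.09 ± 0.17, adjusted p = 1.62e-05). It was called lower in L5/6 NP (-2.11 ± 0.33, adjusted p = 1.12e-05) and L6b neurons (-2.84 ± 0.51, adjusted p = 0.000189). The L6b value rests on 10 UMIs and moved the mean that the other subclasses were set against. Without L6b neurons, an alternative added after the data were seen, L5 ET (-1.01, adjusted p = 8.95e-05) and L6 CT neurons (-1.004, adjusted p = 1.22e-05) were called lower too, and the value of L6 IT neurons fell to 0.63. Without the diestrus library, L6b neurons came from the male library alone, where they held 0 UMIs of Kcnc2. In that fit L2/3 IT read 3.86, L4/5 IT 3.59, L6 IT 2.24, L5 ET 0.59 and L6 CT 1.07. L5/6 NP neurons were not called there (-1.08). Over the libraries, the summed UMIs put L2/3 IT neurons 14.7 times above L5/6 NP neurons (95% interval 11.1 to 19.8, counting error only). With the looser gate the L6b value was 0.77 in place of -2.84. The same gate ended the L6 IT call (0.39, adjusted p = 0.18), and L6 CT neurons were called lower without the estrus library (-0.81, adjusted p = 0.000225).

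The lowest Kcnc2 values lay below those of microglia, which held 13.5, 32.4 and 35.8 CPM in estrus, diestrus and male. L5/6 NP and L6b neurons read less in each library with a value, and L6 CT neurons did in diestrus and male. After each cell was thinned to 5000 UMIs, a UMI of Kcnc2 was seen in 3.1% of estrus, 6.9% of diestrus and 10.2% of male microglia, taken here as a type that should lack it. The shares were 0 of 59, 2.9% and 2.9% in L5/6 NP neurons, where 0 of 59 cells allows a share of up to 5.08%. They were 6.7% in diestrus L6b neurons and 0 of 22 in male L6b neurons, which allows up to 13.6%. These shares were not above the microglial ones of the same library by more than counting error, although the 0 counts allow shares above them, so expression could not be told from background at this depth. In L5 ET neurons the shares were 7.4%, 10.6% and 6.6%, above microglia in estrus and diestrus only. In L2/3 IT neurons they were 36.8%, 51.7% and 45.0%, and in GABAergic neurons 74.8%, 67.4% and 76.0%. Thinning kept 1834, 861 and 305 of 3157, 2366 and 2357 microglia and 1236, 1433 and 1154 of the glutamatergic neurons. Before thinning, Kcnc2 was seen in 3.20%, 5.96% and 5.69% of microglia and 89.4%, 73.5% and 77.4% of GABAergic neurons.

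Kcnc1 varied less among glutamatergic neurons. Its means ran from 70.8 ± 3.80 CPM (SD, n = 3) in L2/3 IT and 64.7 ± 2.71 CPM in L6 IT to 20.9 ± 3.68 CPM in L5 ET neurons. The L5 ET libraries, 17.0, 21.3 and 24.3 CPM, lay below every library of every other glutamatergic subclass. L5 ET neurons were called lower (-1.36 ± 0.12, adjusted p = 8.16e-10), and with cells thinned to 5000 UMIs the difference was -0.84. L2/3 IT (0.70 ± 0.08, adjusted p = 1.22e-07) and L6 IT neurons (0.63 ± 0.09, adjusted p = 4.30e-06) were called higher. L4/5 IT, L5/6 NP, L6 CT and L6b neurons were not called.

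**Figure D2:**
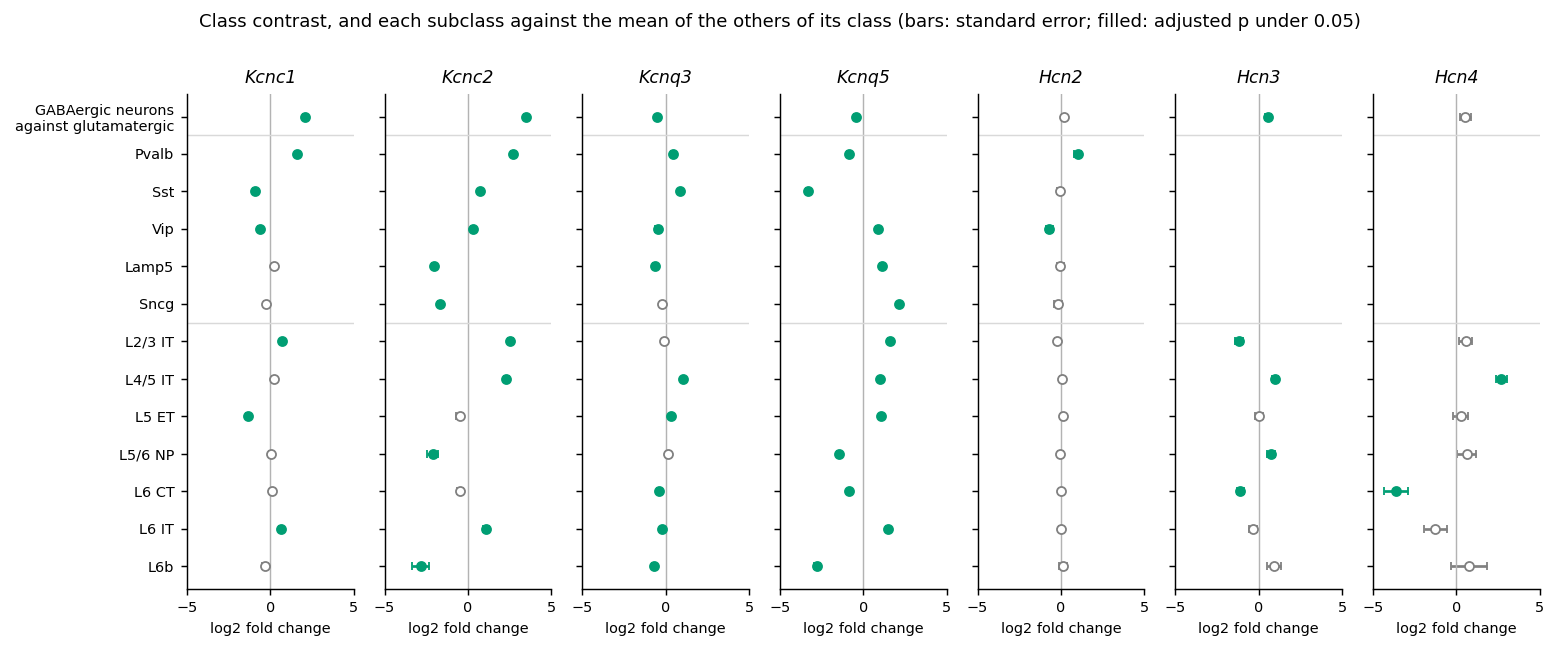
Log2 fold changes of the 7 genes in GABAergic against glutamatergic neurons (top row) and in each subclass against the mean of the others of its class, with standard errors; filled points have an adjusted p under 0.05. Kcnc2 reaches 3.45 and Kcnq5 -3.30, while Hcn2 stays within 0.99 of 0 in every contrast; Hcn3 and Hcn4 have no point among GABAergic subclasses.

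Kcnq5 had the widest range of the Kv7 genes, and it separated interneurons as strongly as Kcnc2 in another order. Sncg neurons, which express cholecystokinin and cannabinoid receptor, held 2007 CPM in diestrus and 1733 CPM in male, above every library of every other neuron subclass. The 19 estrus Sncg neurons, left out of that statement, gave 1192 CPM. Lamp5 neurons held 720, 1263 and 972 CPM in estrus, diestrus and male, and Vip neurons 678, 877 and 904 CPM. Pvalb neurons held 342 and 372 CPM in diestrus and male. Sst neurons held 78.7, 73.5 and 89.2 CPM, below every library of every other GABAergic subclass.

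The log2 difference of Kcnq5 was -3.30 ± 0.13 in Sst neurons (adjusted p = 2.27e-16) and -0.85 ± 0.13 in Pvalb neurons (adjusted p = 1.29e-05). It was 2.16 ± 0.10 in Sncg (adjusted p = 2.96e-14), 1.12 ± 0.10 in Lamp5 (adjusted p = 1.06e-09) and 0.87 ± 0.10 in Vip neurons (adjusted p = 1.61e-07). All 5 differences were called with each library left out in turn, but without the diestrus or the male library Pvalb and Sncg neurons rest on 1 library, assumed to vary like the other subclasses. After thinning, a UMI of Kcnq5 was seen in 17.0%, 30.2% and 23.7% of Sst neurons against 2.5%, 4.4% and 17.0% of microglia. In male Sst neurons that is 14 of 59 cells, close to the microglial share.

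Among glutamatergic neurons Kcnq5 split the subclasses into a high and a low group. L2/3 IT neurons held 1185, 1461 and 1551 CPM, L6 IT 983, 1414 and 1381 CPM, L5 ET 776, 968 and 1316 CPM and L4/5 IT 740, 1089 and 1178 CPM, with ranges that overlapped from each to the next. L6 CT neurons held 282, 289 and 406 CPM and L5/6 NP neurons 175, 290 and 236 CPM. L6b neurons were lowest with 112 CPM in both diestrus and male. No library of the latter 3 subclasses reached a library of the former 4.

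All 7 glutamatergic contrasts of Kcnq5 were called. They were 1.57 ± 0.08 in L2/3 IT, 1.45 ± 0.08 in L6 IT, 1.05 ± 0.08 in L5 ET and 1.01 ± 0.08 in L4/5 IT neurons. They were -0.83 ± 0.09 in L6 CT, -1.46 ± 0.10 in L5/6 NP and -2.78 ± 0.15 in L6b neurons. The largest adjusted p of the 7 was 4.08e-08, in L6 CT neurons. Without L6b neurons the L4/5 IT and L5 ET values were 0.59 and 0.60 and the L6 CT value -1.36, since L6b neurons lower the mean of the others.

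**Figure D3:**
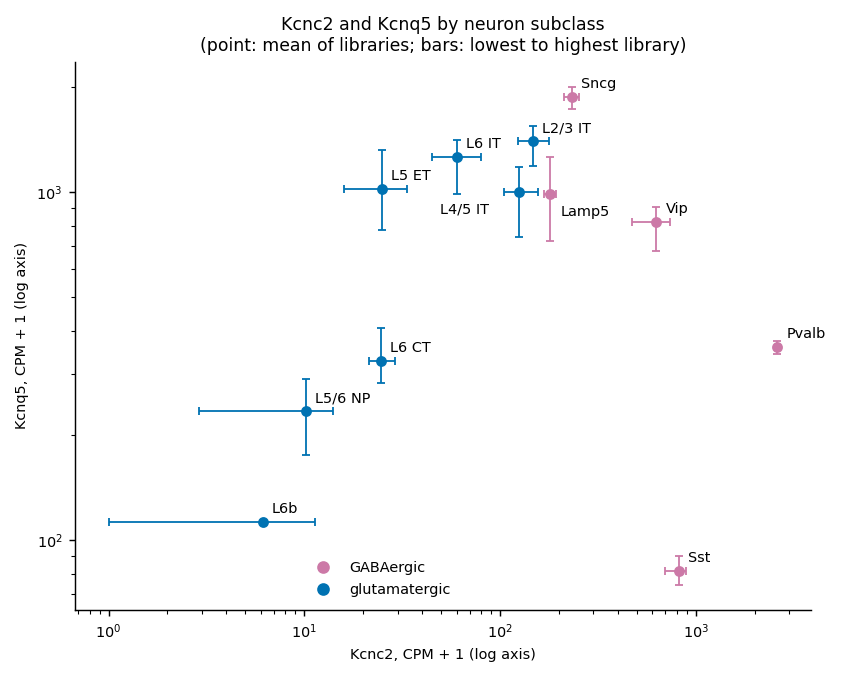
Mean CPM + 1 of Kcnc2 (x) and Kcnq5 (y) in the 12 neuron subclasses, both on log axes, with bars from the lowest to the highest library. Pvalb and Sst neurons lie at high Kcnc2 with Kcnq5 of 357 and 80.5 CPM, Sncg neurons at the top, and L6b neurons low on both.

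Kcnq3, whose product pairs with other Kv7 subunits to form the M-channel, varied less. The gene lies on chr15:65986387-66286642 (-) and overlaps Gm27153 on the opposite strand, and Kcnq5, on chr1:21398403-21961942 (-), overlaps 1 gene on the opposite and 3 on its own strand, so reads of these neighbours may enter their counts. In L4/5 IT neurons Kcnq3 read 606, 734 and 758 CPM in estrus, diestrus and male, above every library of every other neuron subclass. Among glutamatergic subclasses L5 ET neurons followed with 398, 445 and 476 CPM and L5/6 NP neurons with 412, 425 and 385 CPM, in overlapping ranges. L6b neurons were lowest among glutamatergic subclasses with 244 and 257 CPM. The difference was 1.06 ± 0.06 in L4/5 IT (adjusted p = 2.66e-13) and 0.30 ± 0.06 in L5 ET neurons (adjusted p = 0.000802). It was -0.43 ± 0.07 in L6 CT (adjusted p = 1.04e-05), -0.71 ± 0.10 in L6b (adjusted p = 6.44e-06) and -0.22 ± 0.07 in L6 IT neurons (adjusted p = 0.0144). The L6 IT call was lost without the male library (-0.17, adjusted p = 0.199).

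Among interneurons Kcnq3 was highest in Sst neurons, the subclass lowest in Kcnq5. Sst neurons held 436, 578 and 449 CPM and Pvalb neurons 467 and 353 CPM in diestrus and male. Vip neurons held 144, 308 and 211 CPM and Lamp5 neurons 250, 187 and 212 CPM. Kcnq3 was 0.88 ± 0.11 higher in Sst neurons (adjusted p = 1.31e-06). It was 0.44 ± 0.14 higher in Pvalb neurons (adjusted p = 0.0242), a call lost without the diestrus (0.36, adjusted p = 0.185) or the male library (0.49, adjusted p = 0.22). With cells thinned to 5000 UMIs that difference was 0.12 (adjusted p = 0.792). The differences in Lamp5 (-0.64 ± 0.14, adjusted p = 0.00142) and Vip neurons (-0.48 ± 0.14, adjusted p = 0.0141) were called as well. The Lamp5 call was lost without the diestrus library (-0.34, adjusted p = 0.182). The Vip call was lost without the estrus (-0.27, adjusted p = 0.169) or the male library (-0.50, adjusted p = 0.12), and its value was -0.72 without the diestrus library. Sncg neurons were not called (-0.21, adjusted p = 0.41).

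Kcnq3 was also abundant outside neurons. Oligodendrocytes, the myelin-forming cells, held 407, 601 and 551 CPM and oligodendrocyte precursors 334, 455 and 438 CPM, while microglia held 17.0, 24.9 and 47.9 CPM. After thinning to 5000 UMIs, 75.3%, 84.9% and 83.5% of oligodendrocytes had a UMI of Kcnq3, against 2.9%, 6.6% and 14.8% of microglia. Hcn2 was likewise seen in oligodendrocytes, at 92.1, 62.1 and 53.7 CPM, and in 28.2%, 21.9% and 19.5% of thinned cells against 1.3%, 1.9% and 2.0% of microglia. The 5 oligodendrocyte markers summed to 50.5 to 152 CPM in neuron subclasses against 29403 to 34490 CPM in oligodendrocytes themselves. No contrast between oligodendrocytes and neurons was tested.

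The HCN genes lie on chr10:79716634-79736108 (+) for Hcn2, chr3:89146074-89160196 (-) for Hcn3 and chr9:58823412-58863175 (+) for Hcn4. Hcn2 varied little among glutamatergic neurons and more among GABAergic ones. Its glutamatergic means over libraries ran from 29.0 ± 4.04 CPM (SD, n = 3) in L2/3 IT to 34.4 ± 6.13 CPM in L5 ET neurons, with ranges that overlapped throughout, and none of the 7 glutamatergic contrasts was called. Pvalb neurons stood apart with 76.9 CPM in diestrus and 61.8 CPM in male, above every library of every other subclass. The next GABAergic subclass, Lamp5, held 50.02, 34.6 and 33.4 CPM. The Pvalb difference was 0.99 ± 0.19 (adjusted p = 0.000331), and it missed the threshold without the diestrus library (0.79, adjusted p = 0.0568). The estrus Pvalb neurons gave 58.6 CPM, from 29 UMIs.

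Vip neurons held 27.5, 23.95 and 25.9 CPM of Hcn2 and were called lower (-0.70 ± 0.23, adjusted p = 0.0284). That call was lost without the estrus (-0.71, adjusted p = 0.0675), the diestrus (-0.63, adjusted p = 0.24) or the male library (-0.78, adjusted p = 0.0851). It rests on 41 UMIs in 121 cells. Sst, Lamp5 and Sncg neurons were not called.

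Hcn3 and Hcn4 were low, and their values rest on few molecules. Neither passed the filter on low counts among GABAergic subclasses, so no contrast was tested there. Hcn3 read 12.1, 11.2 and 12.7 CPM in Sst neurons and 11.1 and 18.8 CPM in Sncg neurons, from 47 and 19 UMIs in all. Its pooled level of 12.1 CPM in Sst neurons (95% interval 8.91 to 16.1, counting error only) could not be told from that in Vip neurons, 9.96 CPM (5.69 to 16.2). Hcn4, known best for pacemaking in the heart and thalamus, read 9.16, 8.98 and 5.97 CPM in Vip and 12.5 and 5.13 CPM in Sncg neurons, from 13 and 12 UMIs. In Pvalb neurons it was seen as 2 UMIs in diestrus and 0 in male. At this depth no order of interneuron subclasses could be read for either gene.

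Among glutamatergic neurons both genes were higher in L4/5 IT cells. Hcn3 read 11.53, 8.81 and 11.1 CPM in L4/5 IT against 3.40, 3.49 and 1.67 CPM in L2/3 IT and 3.92, 2.62 and 2.48 CPM in L6 CT neurons, with no overlap. Summed UMIs put L4/5 IT neurons 3.50 times above L2/3 IT neurons (95% interval 2.58 to 4.83). Hcn3 was called higher in L4/5 IT (0.96 ± 0.18, adjusted p = 0.000129) and lower in L2/3 IT (-1.20 ± 0.23, adjusted p = 0.000164) and L6 CT neurons (-1.10 ± 0.22, adjusted p = 0.000307). L5/6 NP neurons, with 10.8, 8.28 and 9.23 CPM, were called higher with 3 libraries (0.75 ± 0.25, adjusted p = 0.0214). That call was lost without the estrus (0.79, adjusted p = 0.0626), the diestrus (0.86, adjusted p = 0.0721) or the male library (0.63, adjusted p = 0.125). Hcn3 overlaps Pklr on the opposite strand, and no source used here says whether counting used strand.

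Hcn4 read 6.51, 4.71 and 4.60 CPM in L4/5 IT neurons, from 111 UMIs in 540 cells, above every library of the other glutamatergic subclasses. L2/3 IT neurons held 2.35, 1.44 and 0.477 CPM and L5 ET neurons 1.57, 0.733 and 1.66 CPM. L6 CT neurons, the most numerous subclass, held 2 UMIs in 853 cells. The L4/5 IT difference was 2.70 ± 0.32 (adjusted p = 2.43e-07). Summed UMIs put L4/5 IT 3.35 times above L2/3 IT (95% interval 2.21 to 5.23) and 62.9 times above L6 CT neurons (17.0 to 526, counting error only). The fitted L6 CT value, -3.63 ± 0.70 (adjusted p = 0.000228), depends on how so few counts are smoothed and was not called without the male library (-2.44, adjusted p = 1.00). Without the male library L2/3 IT neurons were called higher (1.73, adjusted p = 0.0464), which they were not with all libraries (0.55, adjusted p = 0.295).

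Read against the background, the counts of channel genes called per subclass were as follows. In Pvalb, Sst, Vip, Lamp5 and Sncg neurons 5, 4, 5, 3 and 2 of the 5 genes tested were called, where 23.1%, 20.1%, 18.9%, 21.8% and 18.9% of all genes tested were called. In L2/3 IT, L4/5 IT and L5 ET neurons 4, 5 and 3 of the 7 genes were called, where 38.3%, 28.2% and 27.9% of all genes were. In L5/6 NP, L6 CT, L6 IT and L6b neurons 3, 4, 4 and 3 of 7 were called, where 36.0%, 26.7%, 26.4% and 15.2% of all genes were. The members were chosen with earlier results of these data known, so these counts are a description.

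Levels across subclasses were also set beside those of all other genes. Over the 9 subclasses with a value in every library, Pearson's r of mean log2(CPM + 1) was taken with 7436 genes of at least 20 CPM. The closest to Kcnc1 were Rpsa (r = 0.96), a ribosomal protein gene, Selenoh (0.96) and Magohb (0.95). The closest to Kcnc2 were Usp10, Synpr and Os9 (0.94 each), where Synpr encodes the synaptic vesicle protein synaptoporin. Kcnq5 was closest to Apopt1 (0.96), Prmt8 and Ssrp1 (0.95 each), and Kcnq3 to Fam217b (0.93), Acot7 (0.91) and Pld3 (0.89). Hcn2 was closest to Dhrs1 (0.95), Ttc1 and Rnmt (0.94 each), Hcn3 to Tkt (0.97), Plekhb2 and Pfdn2 (0.92 each), and Hcn4 to Ankrd12 (0.93), G6pc3 (0.92) and Atp1b2 (0.91). With Pvalb and Sncg neurons added at the 10-cell minimum, 11 subclasses in all, the closest gene was the same for Kcnq3 and Hcn3 and another for the other 5, such as Fndc5 for Kcnc2 (0.93). These correlations share libraries and depth, rest on 9 or 11 points and are descriptions.

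The 2 lists of related genes were counted in the same contrasts. Of 15 genes whose products bind, anchor or regulate these channels, 12 were tested in GABAergic against glutamatergic neurons, and 0 were called higher and 10 lower, where 49.0% of all genes were called, with a median log2 difference of -0.53 against -0.02 over all genes. The 3 lowest were Pex5l, which encodes the HCN trafficking protein TRIP8b (-2.29 ± 0.09, adjusted p = 2.14e-09), the muscarinic receptor gene Chrm1 (-1.71 ± 0.10) and Pip5k1c, a kinase that makes the phospholipid Kv7 channels need (-0.89 ± 0.09). Of 23 other potassium channel genes, 22 were tested, 6 were called higher and 14 lower, beside the same 49.0%, with a median of -0.62. The highest were Kcns3 (4.10 ± 0.15), a silent subunit that modifies other potassium channels, the auxiliary subunit Kcnab3 (2.78 ± 0.27) and Kcna3 (1.71 ± 0.32). The lowest were Kcnh3 (-2.78 ± 0.12), Kcns1 (-2.50 ± 0.33) and Kcnh5 (-2.15 ± 0.11).

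In Pvalb neurons, where both Kv3 genes peaked, 8 of 19 other potassium channel genes tested were called higher and 6 lower, where 23.1% of all genes were called. The highest were Kcnab3 (3.12 ± 0.35), Kcns3 (1.92 ± 0.24) and Kcna1 (1.74 ± 0.17), an axonal Kv1 subunit, and the lowest, beside the scarcely counted Kcnn3, were Kcnd3 (-2.62 ± 0.18) and Kcna4 (-2.62 ± 0.42). Of 12 partner genes 1 was higher, Kcnab2 (0.77 ± 0.21), and 3 lower, led by Pex5l (-2.15 ± 0.25). In Sst neurons, lowest in Kcnq5, 7 of 19 potassium channel genes were higher, with 20.1% of all genes called in either direction, led by Kcnh5 (2.26 ± 0.51), Kcnd2 (0.98 ± 0.09) and Kcns3 (0.87 ± 0.23). A further 5 were lower there, led by Kcnh7 (-2.69 ± 0.17), Kcnh1 (-2.41 ± 0.19) and the small-conductance calcium-activated channel Kcnn2 (-2.30 ± 0.13). Among partners in Sst neurons Akap5, an anchor for kinases at Kv7 channels, was highest (2.19 ± 0.17), Pex5l (0.50 ± 0.16) and Nedd4l (0.49 ± 0.10) were higher and Chrm1 was lower (-0.94 ± 0.21). In Sncg neurons, highest in Kcnq5, 3 of 19 potassium channel genes were higher, Kcnh1 (1.81 ± 0.16), Kcnn2 (1.16 ± 0.12) and Kcnd3 (1.14 ± 0.12), and 6 lower, led by Kcnab3 (-2.28 ± 0.71), where 18.9% of all genes were called. Akap5 was lower there (-2.95 ± 0.39) and Pex5l higher (0.95 ± 0.19). In Vip neurons 3 partner genes were higher and 1 lower, and 7 potassium channel genes were higher and 7 lower, where 18.9% of all genes were called. In Lamp5 neurons the counts were 4 and 1 for partners and 8 and 3 for potassium channels, where 21.8% were. Of 12 partner genes tested among glutamatergic subclasses, 7 were higher and 0 lower in L2/3 IT neurons, where 38.3% of all genes were called. In L5/6 NP neurons 1 was higher and 9 lower, where 36.0% were, and in L6b neurons 0 were higher and 3 lower, where 15.2% were. In L4/5 IT, L5 ET, L6 CT and L6 IT neurons 5, 5, 3 and 5 partner genes were higher. Lower in the same order were 1, 2, 3 and 1, where 28.2%, 27.9%, 26.7% and 26.4% of all genes were called. Differences between subclasses in these counts were not tested.

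Estrus, diestrus and male libraries were compared within the 2 neuron classes as single libraries, with no replicate check and no test. Ratios are log2 of CPM + 1. None of the 7 genes reached a log2 ratio of 1 in size in any of the 6 class comparisons. Among genes of at least 20 CPM, 0.861%, 1.36% and 0.0819% reached it in glutamatergic neurons for estrus over diestrus, estrus over male and diestrus over male. In GABAergic neurons 2.10%, 1.20% and 0.225% did. Within single subclasses 2 of 144 ratios of at least 20 CPM reached it. They were Kcnq3 in Vip neurons, estrus over diestrus (-1.09, from 63 and 206 UMIs), where 8.02% of all genes did, and Kcnc2 in L5 ET neurons, estrus over diestrus (-1.07, from 67 and 133 UMIs), where 0.977% did. A further 10 of 66 ratios under 20 CPM reached it, among them Kcnc2 in L5/6 NP neurons, estrus over diestrus (-2.28, from 3 and 30 UMIs).

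Kcnq5 was lower in the estrus library in both classes. Its log2 ratio of estrus over diestrus was -0.31 in glutamatergic neurons (95% interval -0.33 to -0.29, counting error only) and -0.88 in GABAergic neurons (-0.96 to -0.81). Estrus over male gave -0.49 (-0.51 to -0.46) and -0.39 (-0.48 to -0.31). Kcnc2 had the same direction in estrus over diestrus, with -0.30 in glutamatergic and -0.41 in GABAergic neurons, and -0.59 and -0.34 with subclasses weighted alike. Here and below, that weighting used only subclasses with a value in both libraries. Ratios with the estrus library thus leave out Pvalb, Sncg and L6b neurons. In estrus over male Kcnc2 stood at -0.03 in glutamatergic and -0.60 in GABAergic neurons, the latter -0.32 relative to genes of like length and -0.40 with subclasses weighted alike. Both genes are long, 564 kb and 196 kb, and lie among the longest genes (bin 5 of 5 by length), whose median ratio of estrus over diestrus was -0.20 in glutamatergic and -0.35 in GABAergic neurons. Relative to that median, the Kcnq5 ratios were -0.10 and -0.54 and the Kcnc2 ratios -0.10 and -0.07. These longest genes were also lower in estrus over male, by medians of -0.24 and -0.28, and there Kcnq5 stood at -0.25 and -0.12 relative to that.

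Subclass makeup differed between the GABAergic libraries too. Sst neurons, low in Kcnq5, made 48 of 161 estrus, 44 of 317 diestrus and 65 of 292 male GABAergic cells. With Sst, Vip and Lamp5 neurons weighted alike, the Kcnq5 ratio of estrus over diestrus in GABAergic neurons was -0.58. Sncg neurons, highest in Kcnq5, and Pvalb neurons had no estrus value and are not in it. The part of gene length, depth and makeup in these ratios was not tested, and a difference of condition cannot be told apart from a difference of library.

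Kcnc1 was even across glutamatergic libraries, with 54.9, 51.6 and 50.5 CPM in estrus, diestrus and male. In GABAergic neurons it was lower in both female libraries than in male, with a ratio of -0.49 in estrus over male (-0.61 to -0.36) and -0.44 in diestrus over male (-0.56 to -0.33). Pvalb neurons, highest in Kcnc1, made 15 of 161, 23 of 317 and 42 of 292 GABAergic cells. With subclasses weighted alike the ratios were -0.27 in estrus over male and -0.22 in diestrus over male. The former leaves out Pvalb and Sncg neurons, which had no estrus value, and the latter keeps them, so these 2 ratios cover different subclasses. Kcnq3 differed by 0.13 at most in size, and in GABAergic neurons by 0.03 at most. With subclasses weighted alike, however, its GABAergic ratios were -0.37 in estrus over diestrus, without Pvalb and Sncg neurons, and 0.32 in diestrus over male, with them. Hcn2 was higher in estrus than in diestrus glutamatergic neurons, 37.0 against 29.5 CPM (0.32, 0.23 to 0.43), where genes of its length bin had a median of 0.16. Hcn4 read 4.17 CPM in estrus against 2.13 and 2.04 CPM in diestrus and male glutamatergic neurons, from 206, 98 and 53 UMIs (0.72 and 0.76), and 0.41 and 0.46 with subclasses weighted alike.

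**Figure D4:**
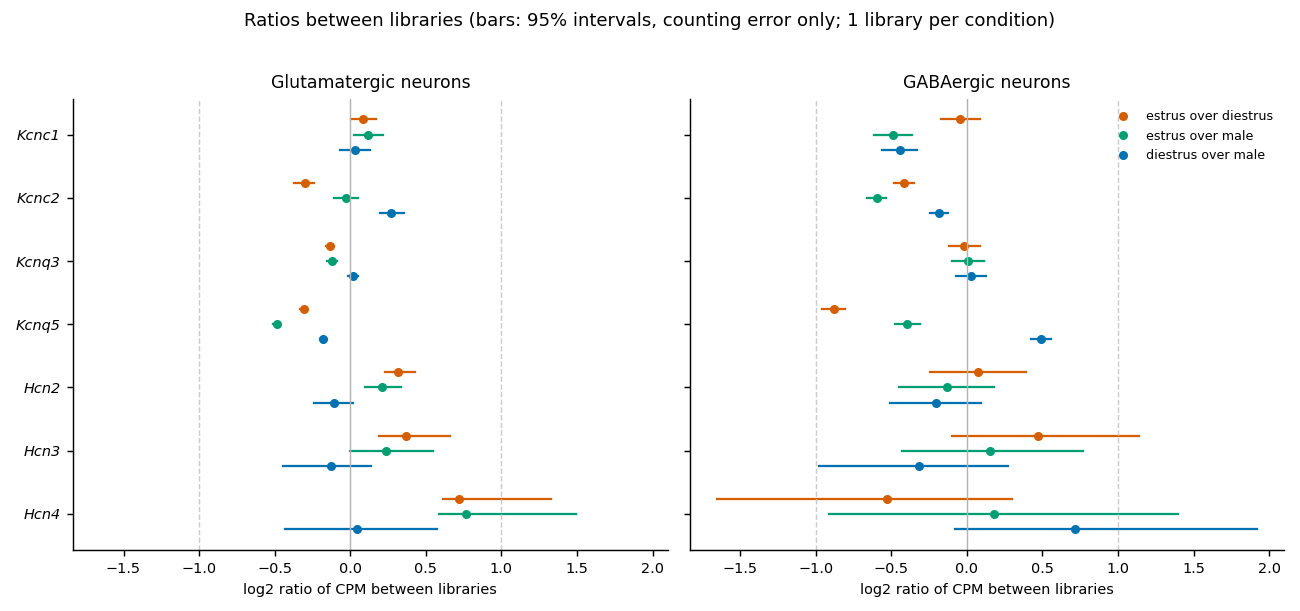
Log2 ratios of CPM between libraries for the 7 genes in glutamatergic (left) and GABAergic neurons (right), with 95% intervals (counting error only, of the ratio before 1 CPM is added to each side) and dashed lines at -1 and 1. With 1 CPM added to each side no point lies beyond the dashed lines, and Kcnq5 in GABAergic neurons, estrus over diestrus, comes nearest at -0.88.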

How the data were processed

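Single-cell libraries were made with a 10x 3′ v3.1 kit after papain digestion and a Percoll step, per the labels' protocols. The deposited UMI counts per gene and barcode came from Cell Ranger 7.0.0, per the file headers, while the submitters' processing notes name 3.0.2 and mm10; no source used here gives the annotation, intron counting or use of strand. Barcodes with at least 500 genes, at most 15% mitochondrial UMIs and a Scrublet score up to 0.3 were retained and gated on marker genes (at least 3 for a class, at least 2 for a subclass), with no channel gene among the markers. UMIs were summed per population and library, for populations of at least 20 cells. edgeR 4.0.16 (R 4.3.3) tested the sums by quasi-likelihood with the library as block, which pairs populations of the same library; adjusted p under 0.05 was called. Members, lists and tests were chosen with earlier results of these data known, and all 7 members are named. The named list genes are among the 3 highest and the 3 lowest called in a contrast, and not every such gene is named. The tests were also run on simulated counts with a shared mean profile, a fixed dispersion and no library effect. Genes of few counts were not changed there, so that run does not bear on them. Alternatives were DESeq2 1.42.0, other normalizations, filters, gates, thinning and left-out libraries.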

Additional observations from a re-analysis of the deposited data

Results flagged for a closer look

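For 3 genes the ratio between a pair of libraries lay on opposite sides of 0 in the 2 neuron classes. Each condition is 1 library, and the difference between classes was not tested. Kcnc1 in estrus over male had a log2 ratio of 0.12 in glutamatergic and -0.49 in GABAergic neurons. Kcnc2 in diestrus over male had 0.27 in glutamatergic and -0.18 in GABAergic neurons. Kcnq5 in diestrus over male had -0.18 in glutamatergic and 0.49 in GABAergic neurons. With subclasses weighted alike the GABAergic values were -0.27, -0.02 and 0.16, where the Kcnc1 value leaves out Pvalb and Sncg neurons for want of an estrus value.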

How the results depend on the processing

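Of 1150 member contrasts recomputed under the alternatives, 1058 kept direction and call, 42 lost the call, 18 gained it and 32 changed sign; where no cause is given below, it was not tested. In GABAergic against glutamatergic neurons 3 members were called without the library block, which removes the pairing within libraries, and 3 to 6 with a library left out. Thinning cells to 5000 UMIs, which leaves fewer counts, called 4887 genes between classes; 820 in Pvalb, 791 in Sst, 818 in Vip, 821 in Lamp5 and 546 in Sncg neurons; and 2467 in L2/3 IT, 1571 in L4/5 IT, 1278 in L5 ET, 2224 in L5/6 NP, 1621 in L6 CT, 1452 in L6 IT and 770 in L6b neurons. DESeq2 called 1330, 1180, 1129, 1381 and 1035 genes in Pvalb, Sst, Vip, Lamp5 and Sncg neurons. Without the block 1172 were called in Vip, 1166 in Sncg, 2421 in L4/5 IT, 2573 in L5 ET, 2460 in L6 CT and 2510 in L6 IT neurons. The stricter gate gave 1252 in Vip and 996 in Sncg neurons.

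With 1 library left out, the genes called ranged from 1118 to 2279 in Pvalb, from 1332 to 1632 in Sst, from 1189 to 1537 in Vip, from 1433 to 1851 in Lamp5, from 1002 to 1911 in Sncg neurons. Among glutamatergic subclasses they ranged from 2503 to 3400 in L4/5 IT, from 2476 to 3422 in L5 ET, from 2315 to 3213 in L6 IT, from 850 to 2336 in L6b neurons. Without the diestrus or the male library Pvalb, Sncg and L6b neurons are 1 library each, assumed to vary like the other subclasses, and the lowest counts of these 3 come from such fits.

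Signs changed for values that were mostly small or thinly counted, and the cause was not tested. Hcn2 in GABAergic against glutamatergic neurons read -0.39 after thinning. Hcn2 in Sst neurons read 0.082 with the stricter gate and between -0.26 and 0.085 with 1 library left out. Hcn2 in Lamp5 neurons read 0.088 with the stricter gate, 0.010 with the 10-cell minimum and between -0.21 and 0.11 with 1 library left out. Kcnq3 in Sncg neurons read 0.30 with clusters and 0.056 after thinning. Hcn2 in L4/5 IT neurons read -0.012 with the stricter gate, -0.017 with the looser gate and between -0.13 and 0.14 with 1 library left out. Hcn3 in L5 ET neurons read between -0.18 and 0.31 with 1 library left out. Hcn4 in L5 ET neurons read -0.011 with the looser gate. Kcnc2 in L5 ET neurons, with 244 UMIs over the libraries, read between -0.60 and 0.59 with 1 library left out. Kcnc1 in L5/6 NP neurons read -0.013 with no filter, -0.072 after thinning, -0.025 without L6b neurons and between -0.037 and 0.13 with 1 library left out. Hcn2 in L5/6 NP neurons read 0.16 after thinning and between -0.11 and 0.071 with 1 library left out. Kcnq3 in L5/6 NP neurons read -0.016 without L6b neurons. Hcn2 in L6 CT neurons read -0.00338 with the looser gate, -0.053 after thinning and between -0.13 and 0.16 with 1 library left out. Kcnc2 in L6 CT neurons, with 535 UMIs over the libraries, read between -0.81 and 1.07 with 1 library left out. Hcn2 in L6 IT neurons read 0.073 with clusters and between -0.089 and 0.017 with 1 library left out. Hcn4 in L6b neurons read -4.60 with the stricter gate and between -5.18 and 2.26 with 1 library left out. Hcn2 in L6b neurons read -0.096 after thinning. Kcnc2 in L6b neurons read 0.77 with the looser gate. Kcnq3 in glutamatergic neurons, estrus over diestrus read 0.069 relative to genes of like length. Hcn3 in glutamatergic neurons, estrus over diestrus read -0.13 after thinning. Kcnq3 in glutamatergic neurons, estrus over male read 0.12 relative to genes of like length. Thinning put 1 GABAergic member, Hcn4, past a log2 ratio of 1 in estrus over male and 1 in diestrus over male. The 10-cell minimum and the fits without shared barcodes or L6b neurons were chosen after seeing the data.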
